A study of Homo sapiens with 12 samples.

Results

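The keratin genes were examined as a family across 3 human cancer cell lines. Members were all rows of the deposited expression table whose symbol is KRT followed by a number and at most 1 letter, which leaves out the keratin-associated proteins. The rule found 29 rows of 20545 in the table. It includes KRT126P, annotated in RefSeq as a pseudogene, and KRT222, a keratin-like gene. By RefSeq's annotation, 12 of the 29 lie on chromosome 12, which holds the type II keratins and, at the edge of that cluster, KRT18, and 17 on chromosome 17, which holds the other type I keratins.

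Expression was measured on Illumina bead arrays from total RNA. HCT116 (from a colon carcinoma), SNU398 (from a hepatocellular carcinoma) and HL60 (from a promyelocytic leukaemia) each had samples labelled Combination and samples labelled 5-Aza-CdR, giving 6 groups of 2 arrays, numbered replicate 1 and 2. 5-Aza-CdR (decitabine) is a cytidine analogue that lowers DNA methylation. The labels do not name what was combined, nor a dose or a duration. No untreated samples were analysed here, so no level below is that of an untreated cell. Separate cultures are not stated for the 2 arrays of a group, and the p-values then reflect array-to-array spread that may be technical only. In RNA from whole cultures, fewer cells making a transcript and less of it per cell cannot be told apart.

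Keratins are the intermediate filament proteins of epithelial cells. A type I (acidic) chain and a type II (basic) chain assemble as obligate partners, and the pair in use marks the kind of epithelium: KRT8 with KRT18 in simple, single-layered epithelia, joined there by KRT19, KRT7 or KRT20, and other pairs in stratified epithelia, hair and the inner root sheath of the hair follicle. Blood cells do not normally build keratin filaments and rely on vimentin instead, and hepatocytes normally carry KRT8 and KRT18.

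Promoter sequence is shown for 4 keratins that stand for the patterns described below: KRT8, high in HCT116 cells alone, KRT34, above the other lines on every HCT116 array, KRT10, whose level followed the replicate number in HCT116 and HL60, and KRT20, the intestinal keratin. Each is the 250 bases before the gene's start listed by RefSeq on GRCh38.p14, 5′ to 3′ on the gene's strand. Capitals mark CG, the dinucleotide that DNA methyltransferases act on, and TATAAA, a form of the TATA box.
KRT8, chr12:52926470-52926719, minus strand: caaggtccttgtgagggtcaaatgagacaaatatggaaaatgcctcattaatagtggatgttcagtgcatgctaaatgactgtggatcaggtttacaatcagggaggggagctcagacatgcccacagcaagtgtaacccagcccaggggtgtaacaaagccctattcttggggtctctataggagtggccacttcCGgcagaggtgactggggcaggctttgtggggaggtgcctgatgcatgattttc
KRT34, chr17:41382307-41382556, minus strand: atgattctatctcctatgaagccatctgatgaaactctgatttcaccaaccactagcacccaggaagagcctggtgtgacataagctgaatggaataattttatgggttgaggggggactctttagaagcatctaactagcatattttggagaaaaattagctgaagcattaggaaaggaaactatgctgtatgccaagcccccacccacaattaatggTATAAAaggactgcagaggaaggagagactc
KRT10, chr17:40822615-40822864, minus strand: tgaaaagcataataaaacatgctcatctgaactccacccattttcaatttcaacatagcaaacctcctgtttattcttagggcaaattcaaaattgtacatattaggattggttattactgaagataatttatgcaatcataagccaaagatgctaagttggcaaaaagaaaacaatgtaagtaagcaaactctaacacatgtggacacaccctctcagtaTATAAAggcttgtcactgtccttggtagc
KRT20, chr17:40885243-40885492, minus strand: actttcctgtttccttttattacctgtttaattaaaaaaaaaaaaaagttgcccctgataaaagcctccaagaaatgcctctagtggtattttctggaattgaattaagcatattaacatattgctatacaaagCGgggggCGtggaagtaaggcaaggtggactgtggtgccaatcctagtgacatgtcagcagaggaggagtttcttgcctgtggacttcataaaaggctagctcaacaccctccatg

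Of the 29 members, 13 matched an entry in that promoter table, and these had between 0 and 7 CG in the 250 bases, with a median of 2 against 11 over all 35116 promoters of the same length. KRT7, KRT18, KRT19, KRT23 and KRT81 were not among the 13. The counts therefore describe neither the whole family nor most keratins that lay higher in HCT116. The KRT8 window held 1 CG, a count that 93.9% of all promoters reach or exceed, and RefSeq's span of KRT8 extends upstream of this start, so the window covers 1 of its annotated starts. KRT34 and KRT10 held 0 and KRT20 held 2. At least 1 CG was present in 93.94% of all promoters. TATAAA, searched on both strands, was present in 7 of the 13 keratin promoters and in 10.72% of all promoters. In those 7 it began between 31 and 27 bases before the start on the gene's own strand. The 2 motifs share no letters and cannot overlap. No DNA methylation was measured, and these counts describe letters only.

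The arrays were not on 1 common scale, at their low end or above it. HCT116 had 25 of the 29 keratins listed and the other 2 lines 26. KRT16, KRT72, KRT75 and KRT79 had no HCT116 value, and KRT6A, KRT24 and KRT38 had values in HCT116 alone. For 7 keratins (KRT6A, KRT18, KRT23, KRT24, KRT27, KRT37 and KRT38) the deposited value was exactly 0 on both HCT116 replicate 2 arrays, as for 4938 of all genes on each, and these were read as not measured. This left 18 keratins with a value on all 12 arrays. The 10th percentile of values above 0 was 8.02 on the Combination and on the 5-Aza-CdR array of HCT116 replicate 1, and 7.10 and 6.86 on those of replicate 2, against 7.67 to 7.70 in SNU398 and 7.56 to 7.64 in HL60. The offset was not confined to the low end. Over the 12349 genes with a value on all 12 arrays, the median HCT116 difference between replicate 2 arrays was -1.21 from HL60 and -1.15 from SNU398. Between replicate 1 arrays it was -0.09 and -0.16. This offset is a median whose size differed between genes, and HCT116 differences as deposited were not adjusted for it. Small differences between HCT116 and another line are therefore given by replicate number, and their signs also under other scalings. Line markers separated HL60 (PRTN3, a neutrophil granule protease, at log2 13.90 to 15.38 against at most 8.21 in the other lines), whereas none of the 4 hepatocyte markers tested was higher in SNU398 than in HL60.

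**Figure D1:**
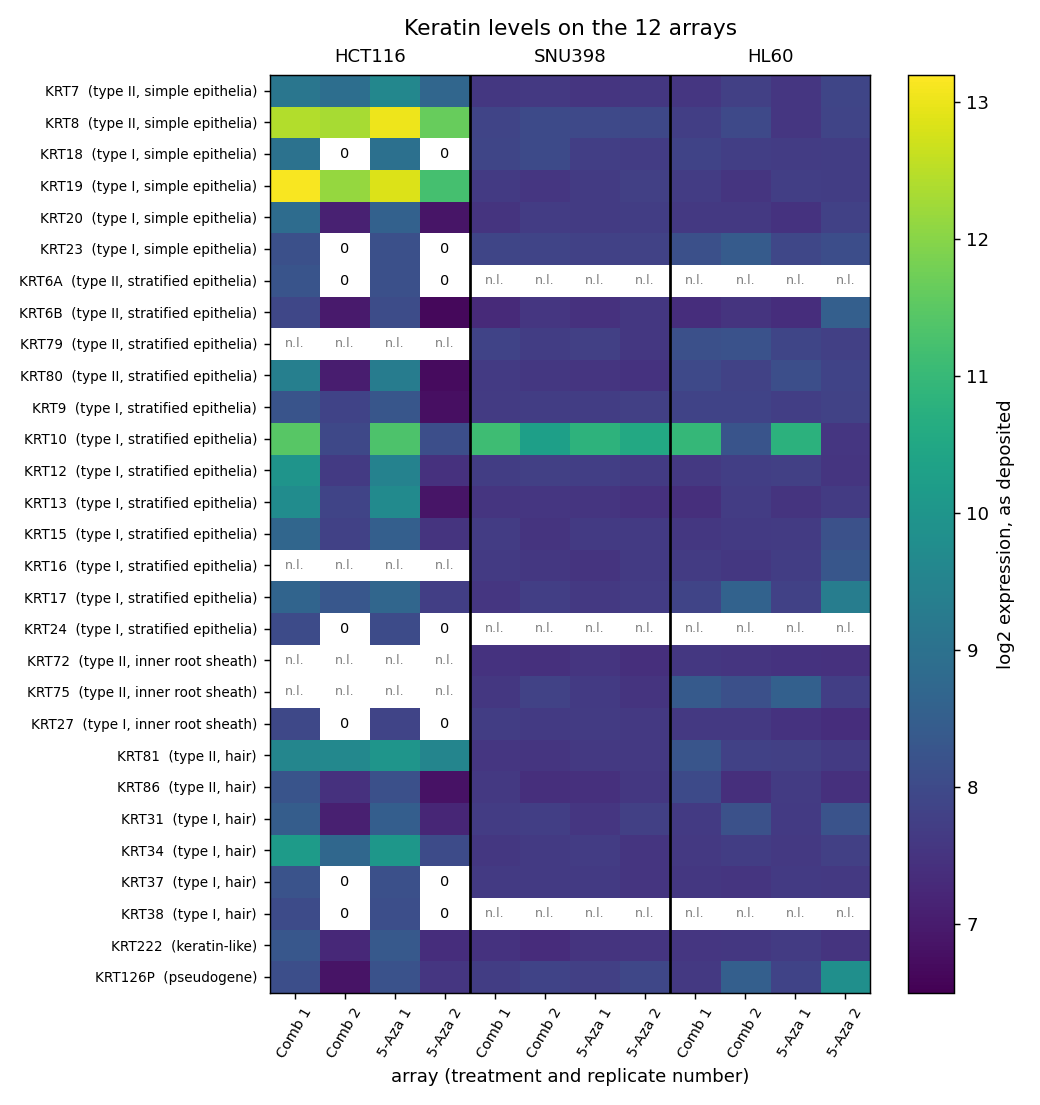
Heat map of the log2 expression of the 29 keratins (rows, grouped by filament type and tissue) on the 12 arrays (columns, grouped by line; Comb is Combination, 5-Aza is 5-Aza-CdR, numbers are replicates). A 0 marks a value listed at exactly 0 and n.l. a gene not listed for that line. KRT8 and KRT19 are bright on all 4 HCT116 arrays alone, and KRT10 is bright in SNU398 and on the replicate 1 arrays of the other lines.

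KRT8 and KRT19, both keratins of simple epithelia, were high in HCT116 cells and lay below the median of every SNU398 and HL60 array. Of the 6 simple-epithelium keratins, KRT7 also lay above both other lines on every array, whereas KRT18, KRT20 and KRT23 did not or lacked replicate 2 values. KRT8, the type II chain of simple epithelia, stood at log2 12.44 and 12.33 on the HCT116 Combination arrays and at 13.02 and 11.65 on the HCT116 5-Aza-CdR arrays (replicates 1 and 2 in each case). In SNU398 it stood at 7.88 and 8.01 with Combination and 7.98 and 7.94 with 5-Aza-CdR, and in HL60 at 7.74 and 7.97 and at 7.56 and 7.86. The HCT116 arrays lay apart from all others, with a gap of 3.64 to the highest SNU398 array and 3.68 to the highest HL60 array. KRT8 averaged 12.36 ± 0.56 in HCT116 and 7.78 ± 0.18 in HL60 (SD, n = 4 arrays of 2 pairs each), and it was higher by 4.58 ± 0.33 (SE, n = 2 pairs per line), 23.9-fold (limma, adjusted p = 0.0226). Against SNU398, which averaged 7.95 ± 0.06, the difference was 4.41 ± 0.33, 21.2-fold (limma, adjusted p = 0.0444).

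KRT19, a type I chain without the usual tail domain that is found in many simple and ductal epithelia, showed the same order. It read 13.14 and 12.14 on the HCT116 Combination arrays and 12.85 and 11.24 on the HCT116 5-Aza-CdR arrays, against 7.56 to 7.76 in SNU398 and 7.55 to 7.74 in HL60. The groups did not overlap, and the replicate 2 arrays of HCT116 were the lower ones in both treatments. The difference was 4.66 ± 0.47 from HL60, 25.4-fold (limma, adjusted p = 0.0428), and 4.69 ± 0.47 from SNU398, 25.8-fold, which did not pass the threshold (limma, adjusted p = 0.0657). On the HCT116 arrays KRT8 lay between the 95.2nd and 97.2nd percentile of each array's values and KRT19 between the 93.6th and 97.3rd.

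In all, 2 of 22 keratins tested were called higher in HCT116 than in HL60 (KRT8 and KRT19), against 0.347% of all genes, and 0 lower, against 0.632%. Against SNU398 1 of 22 (KRT8) was called higher, against 0.0248% of all genes, and 0 lower, against 0.142%. Both tests took the mean of each pair of same-numbered arrays as 1 value and called a gene at a limma adjusted p under 0.05 (Benjamini-Hochberg over all genes). The median difference of the 22 keratins was 0.35 from HL60 and 0.53 from SNU398, beside -0.45 and -0.46 for all genes. With each array centred on its median, KRT8 was 5.36 above HL60 and 5.21 above SNU398, and 491 of 734 genes called against HL60 were higher, compared with 56 of 158 uncentred. With both HL60 replicate 2 arrays left out, 0 keratins and 0 genes of any kind were called in either comparison, while the differences of KRT8 were 4.71 and 4.41 (limma, adjusted p = 0.166 against HL60 and 0.215 against SNU398). With both HCT116 replicate 2 arrays left out the counts were 3 and 2.

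Single arrays also decided these calls. KRT19 lost its call against HL60 without the HCT116 Combination replicate 2 array (adjusted p = 0.0674) and without the HL60 Combination replicate 2 array (adjusted p = 0.0532). KRT8 lost its call against SNU398 without either of these arrays (adjusted p = 0.0718 and 0.0645) and without the SNU398 Combination replicate 1 array (adjusted p = 0.0514), all in limma, while its difference stayed between 4.24 and 4.58 over all 12 arrays left out in turn.

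A count that needs no model gave a similar list. Every HCT116 array lay above every HL60 array for 5 of the 18 keratins measured throughout (KRT7, KRT8, KRT19, KRT34 and KRT81), against 5.56% of all genes, and none of the 18 lay below on every array, against 26.2%. Against SNU398 the same 5 keratins lay above, beside 4.64% of all genes, and 0 below, beside 38.6%. With a gap of at least 1 log2 unit the counts were 3 of 18 against HL60 (KRT8, KRT19 and KRT81), beside 1.55%, and 4 of 18 against SNU398 (KRT7 in addition), beside 0.858%. None lay below by such a gap, beside 5.66% of all genes against HL60 and 6.41% against SNU398. The counts of keratins below are limited by the low end of the arrays. On the HCT116 replicate 1 arrays the 10th percentile was 8.02, above that of every SNU398 and HL60 array. A keratin near the low end in those lines could hardly lie below on all HCT116 arrays, so no conclusion is drawn from these counts.

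**Figure D2:**
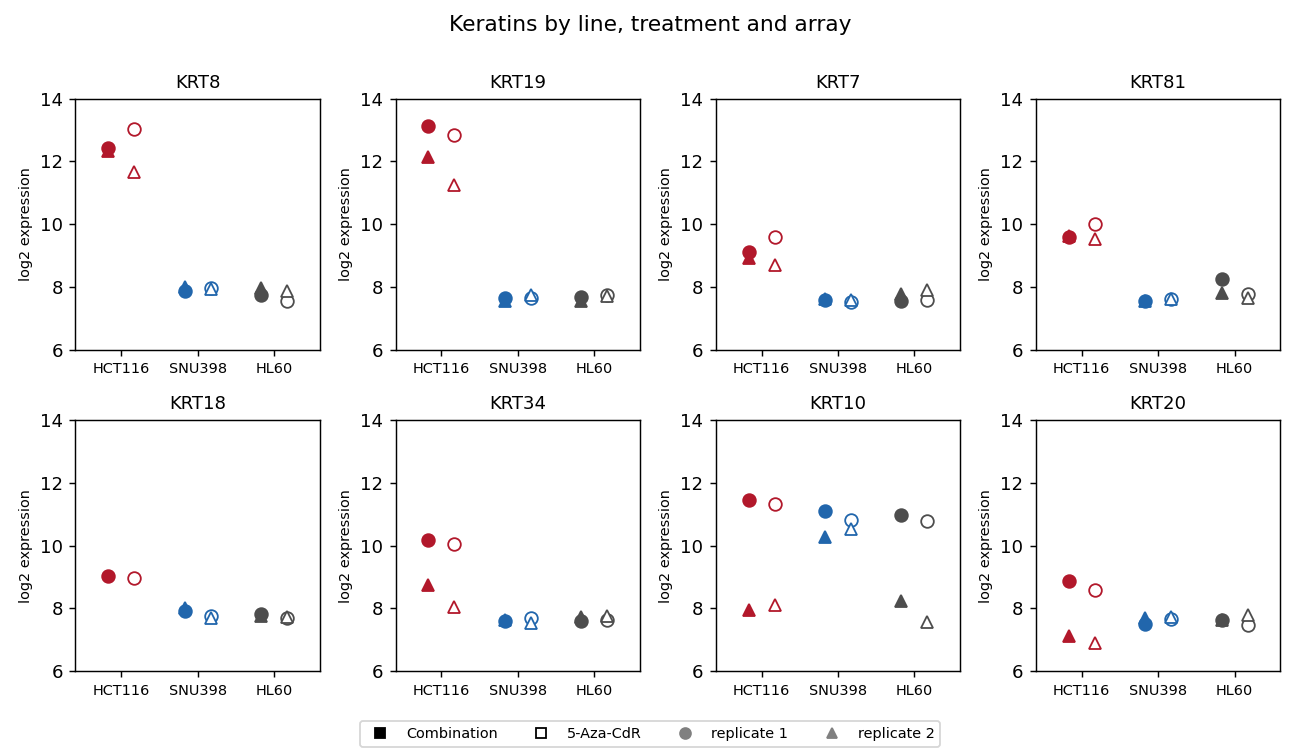
Log2 expression of 8 keratins in HCT116, SNU398 and HL60, 1 point per array (filled for Combination, open for 5-Aza-CdR; circles for replicate 1, triangles for replicate 2). Values listed at 0 are not drawn, so KRT18 has 2 HCT116 points. KRT8, KRT19, KRT7, KRT81 and KRT34 are higher on every HCT116 array, whereas KRT10 splits by replicate number in HCT116 and HL60.

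KRT7, a type II keratin of glandular and ductal epithelia, stood at 9.13 and 8.93 with Combination and at 9.61 and 8.71 with 5-Aza-CdR in HCT116, against 7.53 to 7.61 in SNU398 and 7.55 to 7.90 in HL60. Its differences were 1.52 ± 0.29 from SNU398 and 1.40 ± 0.29 from HL60 (limma, adjusted p = 0.145 and 0.113), so the arrays did not overlap but neither test was passed.

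KRT18, the type I partner of KRT8, had HCT116 values on the replicate 1 arrays alone. There it lay above every array of the other lines, by a gap of 0.95 to SNU398 and 1.12 to HL60. It stood at 9.02 with Combination and 8.96 with 5-Aza-CdR on the HCT116 replicate 1 arrays and was listed at 0 on both replicate 2 arrays, against 7.70 to 8.01 in SNU398 and 7.70 to 7.84 in HL60. From the 1 HCT116 pair that had values the difference was 1.15 ± 0.29 from SNU398 and 1.24 ± 0.29 from HL60 (limma, adjusted p = 0.229 and 0.165). The table gives 1 value per symbol and does not say which probe it came from, so the levels of KRT18 and KRT8 cannot be set against each other.

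KRT20, a keratin of intestinal epithelium, read 8.87 and 7.12 with Combination and 8.58 and 6.88 with 5-Aza-CdR in HCT116, so, as deposited, its replicate 1 arrays lay above and its replicate 2 arrays below all 8 arrays of the other lines (7.48 to 7.79). KRT23, also a type I keratin, read 8.13 with Combination and 8.14 with 5-Aza-CdR in HCT116 replicate 1, 7.80 to 7.90 in SNU398 and 7.92 to 8.42 in HL60. KRT23 in SNU398 lay below every HL60 array, by a gap of 0.03.

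Among hair keratins, 2 lay higher on every HCT116 array. KRT81, a type II hair keratin, stood at 9.59 and 9.64 with Combination and at 9.99 and 9.54 with 5-Aza-CdR in HCT116, against 7.55 to 7.61 in SNU398 and 7.64 to 8.26 in HL60. Its 2 HCT116 pairs were nearly level (9.79 and 9.59), and the difference was 2.11 ± 0.24 from SNU398 and 1.82 ± 0.24 from HL60, 4.30-fold and 3.53-fold, neither past the threshold (limma, adjusted p = 0.0757 and 0.0566). KRT86, a close relative whose annotated span in RefSeq contains that of KRT81, did not follow it: it read 8.25 and 7.46 with Combination and 8.14 and 6.84 with 5-Aza-CdR. Whether the probes tell these 2 genes apart is not given in the sources used here.

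KRT34, a type I hair keratin, stood at 10.17 and 8.74 with Combination and 10.04 and 8.03 with 5-Aza-CdR in HCT116, against 7.53 to 7.70 in SNU398 and 7.61 to 7.77 in HL60. Its replicate 1 arrays were the high ones, and the difference of 1.63 ± 0.60 from SNU398 and 1.56 ± 0.60 from HL60 did not pass (limma, adjusted p = 0.302 and 0.274). The other hair keratins, KRT31, KRT37 and KRT38, stood at 8.04 to 8.46 on the HCT116 Combination replicate 1 array, and of these KRT31 alone had replicate 2 values, 7.09 with Combination and 7.23 with 5-Aza-CdR.

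Of the 12 keratins of stratified epithelia, 8 had values on all 12 arrays, and none of these 8 lay above the other lines on every HCT116 array. The 3 described here, KRT12, KRT13 and KRT80, were chosen after their values were seen. KRT13, a type I keratin of the lining of the mouth and oesophagus, read 9.76 with Combination and 9.71 with 5-Aza-CdR in HCT116 replicate 1, and 7.87 and 6.89 in replicate 2. KRT12, known from the cornea, was at 9.97 and 9.46 against 7.64 and 7.46, and KRT80, a type II keratin, at 9.38 and 9.32 against 7.04 and 6.69, in the same order. In SNU398 and HL60 these 3 genes lay between 7.40 and 8.10 on every array. As deposited, HCT116 minus HL60 for KRT13, KRT12 and KRT80 was 2.28, 2.01 and 1.31 between replicate 1 arrays and -0.31, -0.10 and -0.97 between replicate 2 arrays. KRT17 and KRT15 lay above SNU398 in both, by 1.11 and 0.31 and by 0.96 and 0.09.

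The sign of most keratin differences depended on the replicate number and on the scaling of the arrays. Only keratins, and only genes, with a value above 0 on all HCT116 arrays enter these counts. The 10th percentile of the HCT116 replicate 1 arrays was 8.02, against 7.63 to 7.70 on those of the other lines. A keratin near the low end in each line would thus read higher in HCT116 replicate 1. Between replicate 1 arrays, as deposited, 18 of 18 keratins were higher in HCT116 than in HL60, beside 45.1% of all genes. Between replicate 2 arrays 6 of 18 were (KRT7, KRT8, KRT10, KRT19, KRT34 and KRT81), beside 10.9% of all genes. Against SNU398 the counts were 18 of 18, beside 40.4%, and 7 of 18, beside 13.9%, with KRT15 and KRT17 in the place of KRT10.

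With each array centred on its median, the replicate 2 counts were 17 of 18 against HL60, beside 54.0% of all genes, and 17 of 18 against SNU398, beside 55.1%. With arrays shifted to a common 10th percentile they were 13 of 18, beside 28.3%, and 17 of 18, beside 41.0%. The replicate 1 counts were 17 or 18 of 18 under both scalings. The values below 0 between replicate 2 arrays given above therefore hold for the values as deposited.

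**Figure D3:**
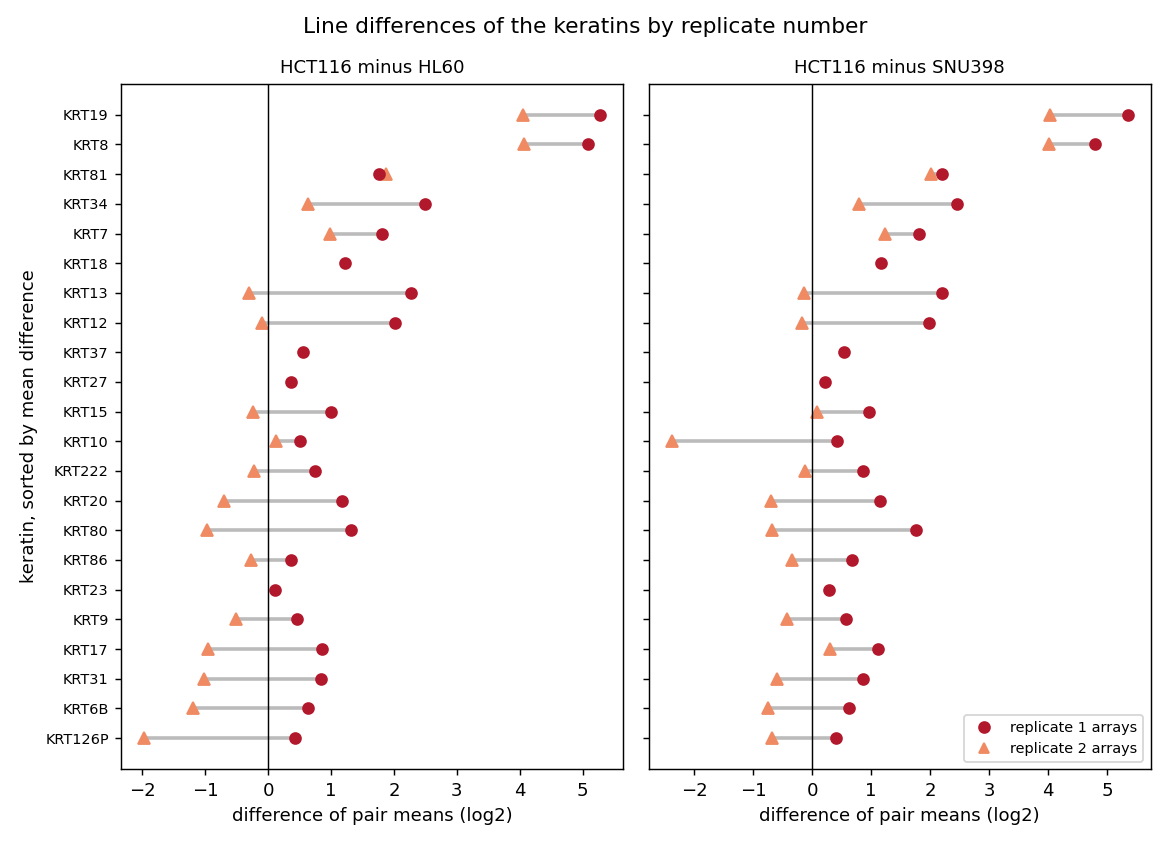
Difference in log2 expression between HCT116 and HL60 (left) and between HCT116 and SNU398 (right) for the 22 keratins tested, from the means of the replicate 1 arrays (circles) and of the replicate 2 arrays (triangles). Keratins with no triangle were listed at 0 on the HCT116 replicate 2 arrays. KRT8 and KRT19 stand at 4 or more on both marks, while most other keratins are above 0 for replicate 1 and, in the values as deposited, below 0 for replicate 2, where 17 of 18 are above 0 once arrays are centred on the median.

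KRT10, the type I keratin of the suprabasal epidermis, was the 1 member at or above the 75th percentile of every SNU398 array, where 21.6% of all genes were. In HCT116 2 members were (KRT8 and KRT19; 18.3% of all genes), and in HL60 0 (16.9%). It stood at 11.11 and 10.28 with Combination and 10.82 and 10.54 with 5-Aza-CdR in SNU398. In HCT116 it stood at 11.45 and 7.95 with Combination and at 11.34 and 8.12 with 5-Aza-CdR, and in HL60 at 10.96 and 8.24 and at 10.80 and 7.57. On replicate 1 arrays the 3 lines thus lay between 10.80 and 11.45, and on replicate 2 arrays HCT116 and HL60 lay between 7.57 and 8.24 while SNU398 stood at 10.28 and 10.54. No line comparison of KRT10 was called (limma, adjusted p between 0.716 and 0.913), with an SE of 1.48 in each.

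In SNU398 no keratin other than KRT10 reached the middle of any array: 25 of 26 lay below the median of every SNU398 array, beside 45.7% of all genes, and 22 below the 25th percentile of every one, beside 16.9%. Apart from the 6 keratins KRT7, KRT8, KRT10, KRT19, KRT34 and KRT81, all SNU398 values lay between 7.30 and 8.01. In HL60 22 of 26 lay below the median on every array, beside 35.8% of all genes. The 4 others were KRT10, and KRT17, KRT6B and KRT126P, whose highest values were on the 5-Aza-CdR replicate 2 array, at 9.34, 8.52 and 9.83. These 3 were chosen after their values were seen. The remaining 3 HL60 arrays held KRT6B at 7.37 to 7.51, KRT17, a keratin of injured and appendage epithelium, at 7.79 to 8.62, and the pseudogene KRT126P at 7.62 to 8.52.

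No keratin difference between SNU398 and HL60 passed the threshold. Of 26 keratins, 0 were called higher, against 1.36% of all genes, and 0 lower, against 1.21% (limma; 0 keratins at an unadjusted p under 0.05, every adjusted p at or above 0.5). The median difference was -0.11, beside 0.01 for all genes. KRT8 in SNU398 was 0.17 ± 0.33 above HL60 with overlapping arrays, and KRT18 0.09 ± 0.23 above it. On every array SNU398 lay below HL60 for 4 of 26 keratins (KRT17, KRT23, KRT80 and KRT81), beside 19.7% of all genes, and above it for 0, beside 24.9%. By a gap of at least 1 log2 unit 0 of 26 lay above, beside 5.23%, and 0 below, beside 3.83%.

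Companion lists of marker genes were compared between the lines. Of all genes, 1.36% were called higher and 1.21% lower in SNU398 minus HL60. The shares were 0.347% and 0.632% in HCT116 minus HL60, and 0.0248% and 0.142% in HCT116 minus SNU398. At such shares a short list would mostly hold no call, so no conclusion is drawn from lists without one. In the hepatocyte list, 5 of 10 genes were found and 4 tested against HL60: 0 were higher and 1 was lower, and the 1 tested in HCT116 was not called. The lower one was SERPINA1, a protease inhibitor, by 3.51 (limma, adjusted p = 0.0252). It stood at 7.67 to 7.76 in SNU398 and at 10.84 to 11.56 in HL60. In the mesenchymal list 2 of 8 genes were higher in SNU398 than in HL60 and 0 lower, while FN1, the fibronectin gene, which was not called, stood at 7.75 to 7.89 in SNU398 and 7.87 to 8.76 in HL60. TWIST1, a repressor of epithelial genes, stood at 6.59 to 8.14 in HCT116, at 13.80 and 13.77 with Combination and 13.82 and 13.87 with 5-Aza-CdR in SNU398, and at 7.57 to 8.07 in HL60. It was higher in SNU398 than in HL60 by 6.06 ± 0.43 (limma, adjusted p = 0.0141) while HCT116 minus SNU398 was -6.33 ± 0.43 (limma, adjusted p = 0.0444). CDH2, the N-cadherin of mesenchymal and neural cells, was higher in SNU398 than in HL60 by 4.52 ± 0.21 (limma, adjusted p = 0.00722), and HCT116 minus SNU398 was -2.91 ± 0.21 (limma, adjusted p = 0.0444).

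VIM, the vimentin of mesenchymal and blood cells, was high in all lines. It stood at 13.60 and 10.48 with Combination and 13.30 and 10.21 with 5-Aza-CdR in HCT116, at 15.22 to 15.55 in SNU398, and at 12.89 and 10.64 and at 12.91 and 10.88 in HL60. As for KRT10, the replicate 2 arrays of HCT116 and HL60 were the low ones. In the list of other intermediate filament proteins, 1 of 11 tested was called higher in HCT116 than in HL60, NES, the nestin of progenitor cells, by 2.65 ± 0.22 (limma, adjusted p = 0.0278), with 0 lower. None of 11 was called in HCT116 against SNU398, and none of 13 in SNU398 against HL60.

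Of the genes whose products tie keratins to junctions, 15 of 21 desmosome and plakin genes were found. In the 3 line comparisons 0 of 15 were called, beside at most 1.36% of all genes in either direction. Their median in HCT116 minus HL60 was 0.33, beside -0.45 for all genes. DSG2, the desmosomal cadherin of simple epithelia, chosen after its values were seen, stood at 10.01 and 10.98 with Combination and 9.89 and 10.74 with 5-Aza-CdR in HCT116, against 7.84 to 8.01 in SNU398 and 7.69 to 7.89 in HL60, and its adjusted p in limma was 0.102 and 0.0631 in the 2 comparisons. It does not stand for the list, whose members went both ways. HCT116 minus HL60 was -2.68 for COL17A1 and -0.83 for JUP, neither called (limma, adjusted p = 0.142 and 0.417). EPCAM, an epithelial surface protein also chosen after its values were seen, was at 10.90 to 11.47 in SNU398, where KRT8 and KRT19 stood in the lower part of every array, against 7.54 to 7.81 in HL60. This difference was not called (limma, adjusted p = 0.261). In HCT116 EPCAM stood at 12.16 and 8.57 with Combination and 11.50 and 8.16 with 5-Aza-CdR. Other epithelial genes varied in SNU398: CDH1 stood at 7.82 to 7.99, RAB25 at 7.63 to 7.69 and CDH3 at 9.18 to 10.12.

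None of the tested genes was called in any line comparison for colon epithelium (9 of 10 found), epithelial regulators and junctions (19 of 24 found), cornified envelope genes (12 of 20 found) or keratin-associated regulators (10 of 10 found). This again stands beside at most 1.36% of all genes in either direction. In the promyelocyte list 2 of 3 tested genes were lower in HCT116 than in HL60 (CTSG and PRTN3) and 7 of 10 were lower in SNU398 than in HL60, among them the granule enzymes MPO and ELANE, by -7.84 and -7.54. Of the erythroid and lymphoid list, 1 of 5 was lower in SNU398 than in HL60 (NKG7, a granule protein of cytotoxic cells) and none was called in the HCT116 comparisons. Among repressors of the epithelial state, TWIST1 was the 1 gene called, of 5 tested in SNU398 against HL60 and of 3 in HCT116 against SNU398.

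**Figure D4:**
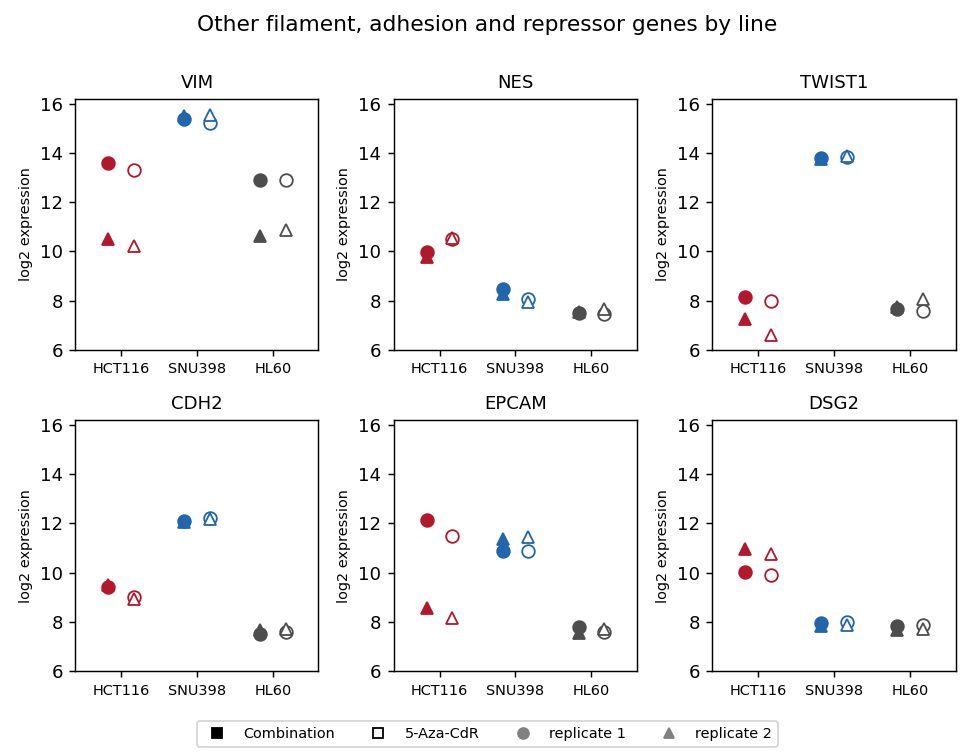
Log2 expression of 6 genes from the companion lists in HCT116, SNU398 and HL60, 1 point per array (filled for Combination, open for 5-Aza-CdR; circles for replicate 1, triangles for replicate 2). TWIST1 and CDH2 are highest in SNU398, DSG2 and NES in HCT116, and EPCAM is high in SNU398 and on the HCT116 replicate 1 arrays.

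No keratin differed between Combination and 5-Aza-CdR past the threshold in any line. In Combination minus 5-Aza-CdR, the unpaired limma fit called 0 of 22 keratins in HCT116, 0 of 26 in SNU398 and 0 of 26 in HL60, against 0% of all genes in each direction. In that fit 0 keratins had an unadjusted p under 0.05 (19, 32 and 26 genes of any kind did). It ignores the pairing, so its spread includes the offset between replicate numbers, and few genes of any kind reached a small p. The average over the 3 lines and the test for a difference between lines also called 0 of 22, with smallest keratin adjusted p of 1.00 each. Median keratin differences were 0.09 in HCT116, 0.01 in SNU398 and -0.01 in HL60, beside 0.02, -0.00 and 0.02 for all genes. In fits to the 2 pair differences of 1 line alone, 0 keratins were called in any line, against 0.170% higher and 0.0324% lower of all genes in HCT116, 2.43% and 1.23% in SNU398, and 0% in both directions in HL60.

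In HCT116 the 2 pairs disagreed on KRT8. With Combination it was lower by 0.58 in pair 1 (12.44 against 13.02 with 5-Aza-CdR) and higher by 0.68 in pair 2 (12.33 against 11.65), a mean of 0.05. KRT19 was above 0 in both pairs, by 0.30 and 0.91, a mean of 0.60 ± 0.51 (SE of the unpaired fit, n = 2 arrays per group). In the pairs of the line, where the offset between replicates cancels, the SE was 0.22. KRT19 had the smallest p of the keratins in HCT116 in both fits, and neither called it (limma, adjusted p = 1.00 unpaired and 0.432 in the pairs of the line). KRT9, KRT13, KRT34 and KRT86 had means of 0.50, 0.52, 0.42 and 0.37, and each was carried by pair 2 (1.06, 0.98, 0.71 and 0.62) more than by pair 1 (-0.06, 0.05, 0.13 and 0.11). Over all genes pair 2 was also wider (SD 0.43) than pair 1 (SD 0.24). On the 5-Aza-CdR replicate 2 array KRT9, KRT13 and KRT86 lay at percentiles 7.7, 10.8 and 9.3. The 10th percentile of that array was 6.86, against 7.10 on its Combination partner. A gene near the low end would thus read higher with Combination in pair 2. KRT12 had a mean of 0.35, with 0.51 in pair 1 and 0.18 in pair 2.

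Of 18 HCT116 keratins with both pairs, 8 lay above 0 in both, beside 30.0% of all genes, and 3 below 0 in both, beside 26.4%. The median over the 18 was 0.01 in pair 1 and 0.32 in pair 2, beside -0.01 and 0.07 for all genes. The pair 2 median includes keratins near the low end, where the HCT116 replicate 2 arrays differ from each other. None of them was at least 0.5 apart the same way in both pairs, beside 0.737% of all genes higher and 0.292% lower.

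In SNU398 the differences were small. The keratin pair differences ran from -0.16 to 0.29 in pair 1 and from -0.26 to 0.34 in pair 2, with 6 of 26 above 0 in both, beside 29.6% of all genes, and 7 below 0 in both, beside 30.7%. KRT18 had the smallest p: it stood at 7.90 and 8.01 with Combination and at 7.74 and 7.70 with 5-Aza-CdR, so its pairs were 0.16 and 0.31. KRT18 lay between percentiles 11.7 and 32.5 of the SNU398 arrays. Its mean of 0.23 had an SE of 0.20 in the unpaired fit and 0.08 in the pairs of the line. Neither fit called it (limma, adjusted p = 1.00 unpaired and 0.155 in the pairs of the line). KRT79, KRT75 and KRT23 stood at 0.10, 0.14 and 0.07, KRT80 at 0.10, and KRT19 and KRT222 at -0.11 and -0.10.

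In HL60 the pair differences of all genes were wider in pair 2 (SD 0.55) than in pair 1 (SD 0.16). Several keratins likewise differed more in pair 2, which is therefore not particular to keratins. KRT126P had differences of -0.22 and -1.30, KRT16 of -0.06 and -0.70, KRT6B of 0.01 and -1.01, KRT17 of 0.09 and -0.73, and KRT10 of 0.17 and 0.67, none of them called (limma, adjusted p = 0.895 each in the pairs of the line). Their values on the HL60 5-Aza-CdR replicate 2 array, 9.83 for KRT126P and 8.30 for KRT16, stood above the other 3 HL60 arrays, whereas that of KRT10, 7.57, stood below them. KRT79, KRT81 and KRT23 were above 0 in both pairs, with means of 0.32, 0.33 and 0.26. Of 26 keratins 9 lay above 0 in both pairs, beside 28.0% of all genes, and 8 below 0 in both, beside 23.8%. None was at least 0.5 apart in both pairs, in SNU398 (beside 0.531% higher and 0.0876% lower) or in HL60 (beside 0.376% and 0.0361%).

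**Figure D5:**
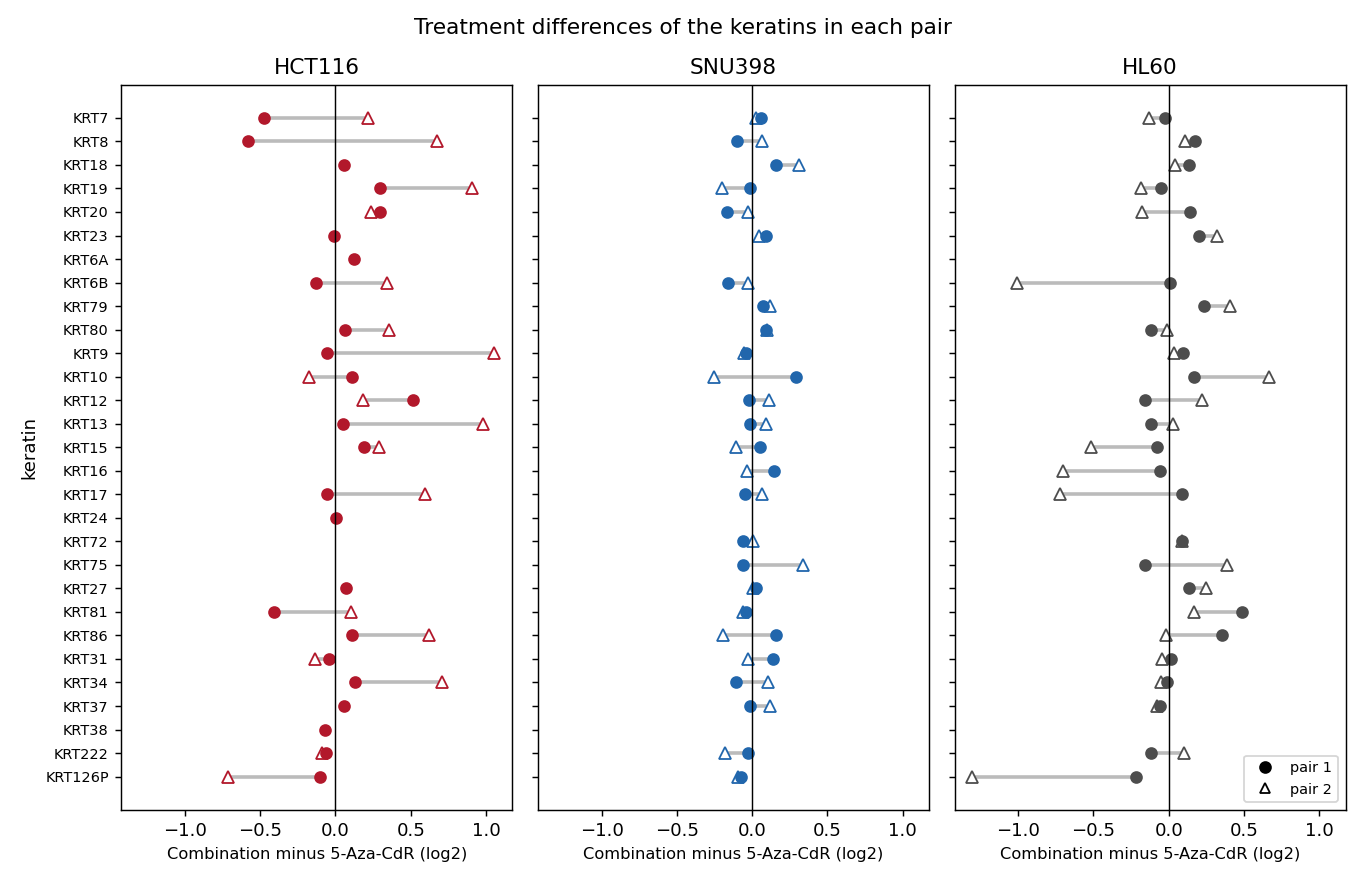
Combination minus 5-Aza-CdR in log2 expression for each keratin (rows) in HCT116, SNU398 and HL60, with pair 1 as filled circles and pair 2 as open triangles joined by a line. Keratins with no mark are not listed for that line, and those with 1 mark were listed at 0 on the HCT116 replicate 2 arrays. The SNU398 pairs stay within -0.26 and 0.34, while in HCT116 and HL60 the triangles reach 1.06 and -1.30. Over all genes pair 2 was also the wider one in HCT116 (SD 0.43 against 0.24) and in HL60 (0.55 against 0.16).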

How the data were processed

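Values were the deposited table of log2 expression, 1 value per gene symbol and sample. That scale was taken from the values themselves. The submitters' processing notes name limma, and the version, background correction, normalization, genome build and the probe behind each symbol are not given in sources used here. A second table, of bead-level signals with 44 columns for 11 arrays, matches no sample's labels and was not used, so no detection call was available. The precision is limited by 2 arrays per group. Values of exactly 0 were treated as not measured.

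limma 3.58.1 in R 4.3.3 (lmFit, eBayes) was fitted to all genes. Lines were compared on 6 values, each the mean of the 2 same-numbered arrays of a line, and treatments on the 12 arrays as 6 group means; both are two-sided and called at a Benjamini-Hochberg adjusted p under 0.05. Same-numbered arrays deviated together from their group means (r = 0.907 in HCT116, 0.869 in SNU398 and 0.909 in HL60 over 12349 genes), so the replicate numbers pair the arrays. Keratins with values from 1 HCT116 pair entered with that pair alone. A percentile is the rank of a value among those above 0 on its array.

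Named with values were the 6 keratins of simple epithelia, up to 10 called keratins per line comparison, those at or above the 75th percentile of every array of a line, the 4 with the smallest p per line in each treatment fit, and up to 4 genes with the smallest p per companion list where any was called; others named were chosen after their values were seen. The keratins, lists and rules were chosen with earlier results of these data known. List genes were matched through RefSeq symbols and synonyms. The fits were tested on simulated data.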

Additional observations from a re-analysis of the deposited data

How the results depend on the processing

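No alternative reversed KRT8 or KRT19 in HCT116 minus HL60, or KRT8 in HCT116 minus SNU398. For HCT116 minus HL60, where 2 keratins were called, the count was 5 without the replicate block (12 arrays as separate values), 7 with arrays centred on the median, 5 after quantile normalization, 0 with zeros kept as listed, 1 with trend and robust variance, 4 with arrays shifted to a common 10th percentile and 0 without both HL60 replicate 2 arrays. For HCT116 minus SNU398, where 1 was called, these counts were 5, 5, 3, 0, 0, 5 and 0 in the same order, 2 when genes averaging under log2 9 were left out and 2 without both HCT116 replicate 2 arrays. All these calls were higher in HCT116. The shift to a common 10th percentile and the settings that drop a whole replicate were chosen after seeing the data. Leaving out 1 array at a time gave 1 to 3 and 0 to 2 calls. The cause of these changes was not tested. SNU398 minus HL60 had 0 keratin calls in every setting run. Keratins above 0 between replicate 2 arrays numbered 6 of 18 against HL60 and 7 of 18 against SNU398, but 17 and 17 after centring on the median and 13 and 17 at a common 10th percentile, scalings tried on these counts after seeing the data.

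All genes called numbered 158 in HCT116 minus HL60 (56 higher), against 2936 (652) without the block, 734 (491) centred, 395 (241) quantile normalized, 28 (7) with trend and robust variance and 1020 (205) at a common 10th percentile. In HCT116 minus SNU398 they were 27 (4 higher), against 2352 (308), 227 (109), 113 (65), 0 and 541 (84). In SNU398 minus HL60 they were 497 (263 higher), against 2757 (1488), 1303 (753), 463 (263), 211 (106) and 1241 (625). With zeros kept these were 7, 5 and 13, and without both HL60 replicate 2 arrays 0 in each.

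The replicate block left 0 keratins called in each treatment comparison and changed no call there. Every other treatment alternative also gave 0 keratins, while the pairs of a line alone called 25 of all genes in HCT116 and 710 in SNU398, against 0 unpaired. Keratins at or above the 75th percentile on every array of a line numbered 3, against 5 at the 50th, and 3 to 4 with 1 array left out. Probes without a detection call and 7 keratins at 0 on the HCT116 replicate 2 arrays limit what can be said at the low end.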
